A study of Sus scrofa with 9 samples.

Results

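DNAJB1 and 9 further genes of the heat shock response were followed in 9 porcine hearts donated after circulatory death (DCD). The genes were chosen from measured values: DNAJB1 stood out between hearts procured without normothermic regional perfusion (NRP) and a group procured with it, and its companions were named around it as parts of the response that heat shock factor 1 (HSF1) drives. The 10 members are the factors HSF1 and HSF2, the HSP70 partners DNAJB1, HSPH1 and BAG3, the chaperones HSPA8, HSP90AA1, HSPB1 and CRYAB, and the zinc finger gene ZFAND2A. Of these, 8 were listed among the 25149 genes of the table, and all 8 passed the filter of at least 1 TPM in at least 3 hearts, as did 11782 genes in all. HSPB1 and CRYAB, the 2 small heat shock proteins among the members, were matched neither by symbol nor by identifier and were not analysed here. TPM, a measure of transcript abundance, divides the reads of a gene by its length and sets the sum of each heart to 1000000, so that levels can be compared between genes.

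All donors were female American Yorkshire pigs of 4 to 6 months, and every heart underwent 15 min of warm ischemia before procurement and 2 h of normothermic machine perfusion (NMP) after storage. Group 2 (NRP + SCS 2 h, pigs 24, 25 and 29) received 60 min of NRP, in which warm oxygenated blood is circulated within the donor, followed by 2 h of static cold storage (SCS) at 4 °C. Group 1 (NRP + HOPE 24 h, pigs 27, 28 and 30) received the same NRP, followed by 24 h of hypothermic oxygenated perfusion (HOPE) at 8 °C. Group 3 (No NRP + HOPE 2 h, pigs 31, 33 and 34) was procured with 0 min of NRP and stored for 2 h in HOPE at 8 °C. Group 3 therefore differs from Group 2 in NRP and in the storage method and temperature together, and Group 1 differs from Group 2 in the method, duration and temperature of storage, so these factors cannot be told apart. The HOPE perfusate held donor red cells, and the NMP circuit was primed with donor whole blood. Each heart gave 1 biopsy of the apex at the end of NMP, and no biopsy from before NMP was analysed here.

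Cells answer protein damage by releasing HSF1 from the chaperones that hold it inactive. HSF1 then forms trimers, binds heat shock elements in promoters and raises the transcription of chaperone genes, whose products refold damaged proteins and in time bind HSF1 again. HSF1 is switched on mainly by changes to the protein, so its own mRNA is not a measure of its activity. In the heart, HSP70, HSP90, BAG3 and the small heat shock proteins maintain the sarcomere, whose proteins are under constant mechanical strain.

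The labels name cardiomyocytes as the cell type, while the material was whole myocardium. The 9 cardiomyocyte markers listed, of 12 written, summed to between 31810 and 60710 TPM per heart, and their ranges overlapped in all 3 groups. The 13 mitochondrially encoded genes took 38.2% of all TPM in pig 30 and between 44.8% and 55.4% in the other 8 hearts. In such tissue, fewer cells of a type and less RNA per cell cannot be told apart. The 3 hearts of a group came from separate pigs. Read counts were not used here, and the depth behind each TPM value is unknown.

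DNAJB1 is an HSP40 cochaperone, which delivers unfolded proteins to HSP70 and stimulates its ATPase. In Group 2 it stood at 38.0 TPM in pig 24, 42.5 TPM in pig 25 and 43.5 TPM in pig 29. In Group 1 it stood at 45.5 TPM in pig 27, 38.4 TPM in pig 28 and 43.8 TPM in pig 30. In Group 3 it stood at 310.2 TPM in pig 31, 122.8 TPM in pig 33 and 189.1 TPM in pig 34. Each heart without NRP lay above all 6 hearts with NRP, which lay between 38.0 and 45.5 TPM.

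The group means of DNAJB1 were 41.3 ± 2.92 TPM (SD, n = 3) in Group 2, 42.6 ± 3.72 TPM (SD, n = 3) in Group 1 and 207.4 ± 95.01 TPM (SD, n = 3) in Group 3. The ratio of means was 5.01 for Group 3 over Group 2 and 4.87 for Group 3 over Group 1. Single hearts without NRP reached 7.502 (pig 31), 2.97 (pig 33) and 4.57 (pig 34) times the Group 2 mean. The spread differed between groups as well, with a coefficient of variation of 7.06% in Group 2, 8.74% in Group 1 and 45.8% in Group 3. These values chose the gene and are given as a description.

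ZFAND2A (also called AIRAP) encodes an AN1-type zinc finger protein that binds the proteasome and is induced by arsenite and heat through HSF1. Its level in Group 2 was 13.3 TPM in pig 24, 16.8 TPM in pig 25 and 9.31 TPM in pig 29. In Group 1 it was 15.7 TPM in pig 27, 14.6 TPM in pig 28 and 20.6 TPM in pig 30. In Group 3 it was 51.6 TPM in pig 31, 22.3 TPM in pig 33 and 22.4 TPM in pig 34. The 3 hearts without NRP again lay above all 6 hearts with NRP, but pigs 33 and 34 only narrowly above pig 30. The means were 13.1 ± 3.75, 17.0 ± 3.17 and 32.1 ± 16.9 TPM (SD, n = 3 each) in Group 2, Group 1 and Group 3.

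HSPH1 encodes HSP110, which resets HSP70 by exchanging its nucleotide and also keeps unfolded proteins from clumping. It was measured at 36.7 TPM in pig 24, 35.3 TPM in pig 25 and 30.3 TPM in pig 29 of Group 2. In Group 1 the values were 33.5 TPM in pig 27, 61.4 TPM in pig 28 and 42.0 TPM in pig 30. In Group 3 they were 89.8 TPM in pig 31, 46.2 TPM in pig 33 and 53.4 TPM in pig 34. The hearts without NRP lay above the 3 hearts of Group 2, whereas pig 28 of Group 1 exceeded pigs 33 and 34. Pig 31 had the highest level of DNAJB1, ZFAND2A and HSPH1 alike.

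DNAJB1 and ZFAND2A were thus the members with every heart without NRP above every heart with NRP, a pattern that 128 of the 11782 genes tested shared (1.09%). The plot of all 8 genes by heart shows this order beside the genes that lacked it.

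**Figure D1:**
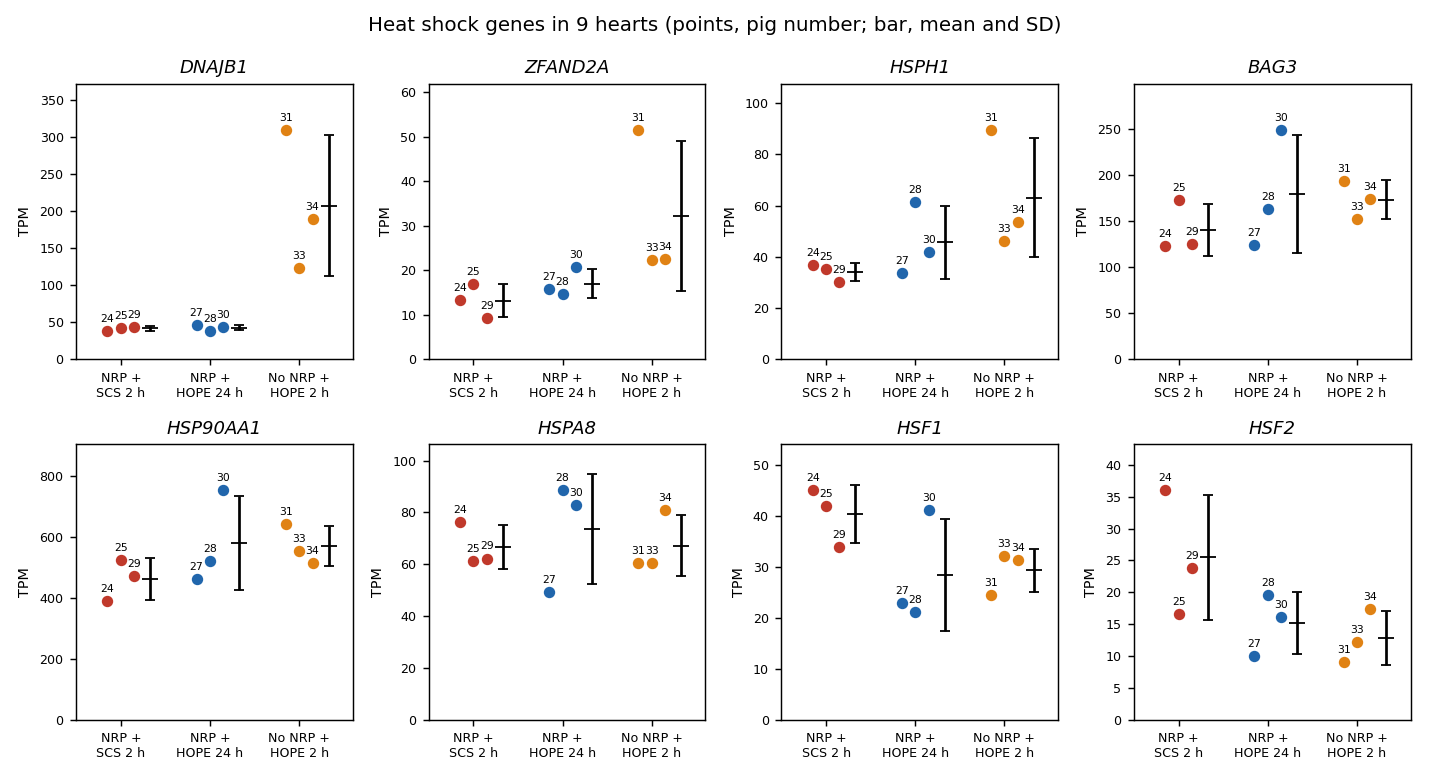
TPM (linear axes from 0) of the 8 listed heat shock genes in each of 9 hearts, labelled by pig number, for Group 2 (NRP + SCS 2 h), Group 1 (NRP + HOPE 24 h) and Group 3 (No NRP + HOPE 2 h), with the group mean and SD as a bar. DNAJB1 lies between 38.0 and 45.5 TPM in the 6 hearts with NRP and between 122.8 and 310.2 TPM in the 3 without, while HSPA8, HSP90AA1 and BAG3 overlap between all groups.

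The most abundant member was HSP90AA1, the stress-inducible form of cytosolic HSP90, which matures kinases and receptors and holds HSF1 inactive. It was measured at 389.3, 524.2 and 472.9 TPM in pigs 24, 25 and 29 of Group 2. In Group 1 it was measured at 462.3, 522.5 and 753.7 TPM in pigs 27, 28 and 30. In Group 3 it was measured at 644.3, 554.1 and 515.8 TPM in pigs 31, 33 and 34. The highest heart was pig 30, stored for 24 h, and the 3 groups overlapped.

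BAG3 encodes a cochaperone that ties HSP70 to the small heat shock proteins and sends damaged sarcomere proteins to autophagy. Its values in Group 2 were 123.4, 173.2 and 125.7 TPM in pigs 24, 25 and 29. In Group 1 they were 124.5, 163.4 and 249.9 TPM in pigs 27, 28 and 30, and in Group 3 they were 194.1, 152.5 and 174.2 TPM in pigs 31, 33 and 34. Pig 30 was again highest and the groups overlapped.

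HSPA8 encodes HSC70, the HSP70 that cells make without stress. It ranged from 61.1 to 76.3 TPM in Group 2, from 49.2 to 88.6 TPM in Group 1 and from 60.4 to 80.9 TPM in Group 3. Its mean in Group 3 was 1.01 times that in Group 2, against 5.01 times for DNAJB1.

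The factor HSF1 itself was measured at 45.1, 41.9 and 34.0 TPM in pigs 24, 25 and 29 of Group 2. In Group 1 it was measured at 23.0, 21.2 and 41.1 TPM in pigs 27, 28 and 30. In Group 3 it was measured at 24.5, 32.1 and 31.3 TPM in pigs 31, 33 and 34. The hearts without NRP all lay below those of Group 2, and in Group 1 pig 30 fell within the Group 2 range.

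HSF2, which can join HSF1 in mixed trimers, had the lowest mean of the members over all 9 hearts. In Group 2, however, its mean lay above that of ZFAND2A (25.5 against 13.1 TPM), and ZFAND2A exceeded HSF2 in 6 of 9 hearts. The values of HSF2 were 36.0, 16.6 and 23.9 TPM in pigs 24, 25 and 29, 9.94, 19.6 and 16.1 TPM in pigs 27, 28 and 30, and 9.01, 12.2 and 17.3 TPM in pigs 31, 33 and 34. The means were 25.5 ± 9.82, 15.2 ± 4.88 and 12.8 ± 4.20 TPM (SD, n = 3 each) in Group 2, Group 1 and Group 3, and the hearts overlapped in each pair of groups.

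Over all 9 hearts the order of mean levels in TPM was HSP90AA1 (537.7), BAG3 (164.6), DNAJB1 (97.1), HSPA8 (69.1), HSPH1 (47.6), HSF1 (32.7), ZFAND2A (20.7) and HSF2 (17.8). Only between HSP90AA1 and BAG3 were the ranges apart, in the order HSP90AA1 above BAG3 in 9 of 9 hearts. All other neighbours in this order overlapped. DNAJB1 exceeded HSPA8 in 3 of 9 hearts, which were those without NRP. From its lowest to its highest heart DNAJB1 differed 8.16 times, ZFAND2A 5.54 times, HSF2 3.995 times and HSPH1 2.97 times, whereas HSPA8, HSP90AA1, BAG3 and HSF1 differed between 1.80 and 2.13 times.

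The comparison of Group 1 (24 h of HOPE) with Group 2 (2 h of SCS) asks what 24 h of HOPE leaves behind relative to a short cold storage when both follow NRP. No change of a heat shock gene was detected. The call rule was an adjusted p under 0.05 by limma with an absolute log2 fold change over 1, and 0 of the 8 members passed it, against 3 of 11782 genes (0.0255%). At an unadjusted limma p under 0.05 with the same fold limit, 0 of 8 members and 2.23% of all genes passed. In 0 of 8 members were the hearts of the 2 groups without overlap, against 9.82% of all genes (2.5% higher and 7.32% lower in Group 1). The Group 2 hearts of this comparison also served the one that chose the members.

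On the log2(TPM + 1) scale, DNAJB1 differed by 0.04 (SE 0.32, 95% interval -0.64 to 0.72, limma adjusted p = 0.995) for Group 1 over Group 2. That interval spans changes of either sign and does not show equal levels. HSPH1 differed by 0.37 (95% interval -0.32 to 1.06), ZFAND2A by 0.37 (-0.41 to 1.14), BAG3 by 0.30 (-0.31 to 0.92), HSP90AA1 by 0.30 (-0.22 to 0.83) and HSPA8 by 0.10 (-0.52 to 0.72). The factors had negative estimates, of -0.54 for HSF1 (95% interval -1.20 to 0.11) and -0.69 for HSF2 (-1.48 to 0.09). For each of these 7 genes the limma adjusted p was 0.993. These estimates moved with single hearts. HSPH1 lay between 0.14 (without pig 28) and 0.57 (without pig 27), and ZFAND2A between 0.16 (without pig 29) and 0.55 (without pig 25), with 0.23 without pig 30. BAG3 fell to 0.04 without pig 30 and reached 0.54 without pig 27 and 0.46 without pig 25, and HSP90AA1 was 0.10 without pig 30 and 0.19 without pig 24. HSPA8 ranged from -0.05 (without pig 28) to 0.37 (without pig 27), HSF1 was -0.83 without pig 30, and HSF2 was -0.42 without pig 24 and -0.43 without pig 27. DNAJB1 ranged from -0.02 (without pig 24) to 0.11 (without pig 28). The median over the 8 members was 0.20, and that over all genes tested was -0.12. The median over the members was 0.03 without pig 30, 0.12 without pig 29, 0.125 without pig 28 and 0.39 without pig 27, while that over all genes was -0.31 without pig 30 and 0.04 without pig 27. Median-of-ratios scaling, which corrects each heart by a factor taken from genes detected in all of them, raised the median of all genes by 0.12 and that of the members to 0.35, and DNAJB1 then differed by 0.19.

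**Figure D2:**
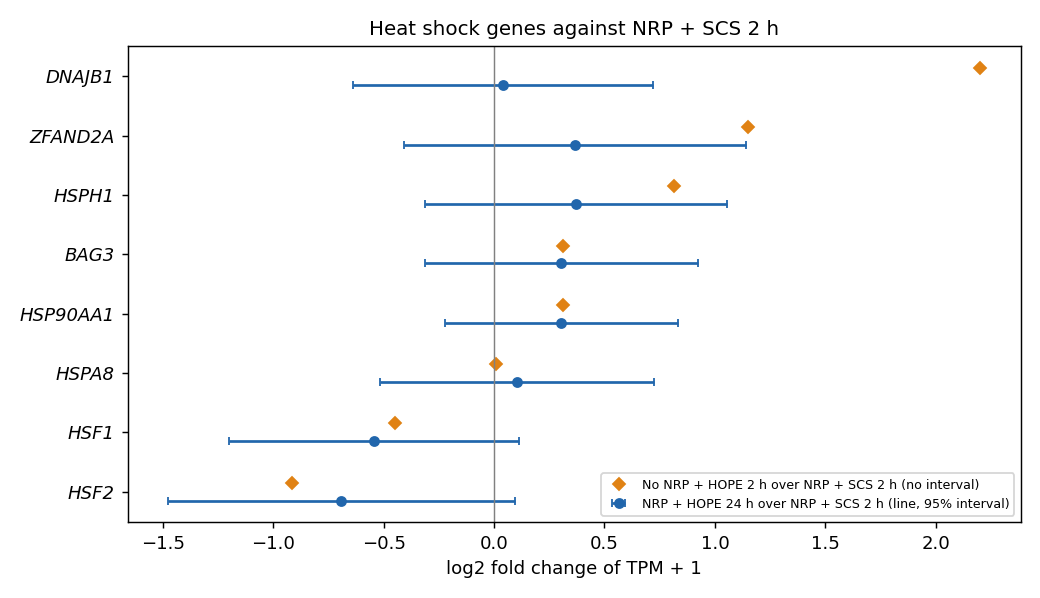
Log2 fold change of TPM + 1 for the 8 listed heat shock genes, with Group 1 (NRP + HOPE 24 h) over Group 2 as circles with the 95% interval from limma and Group 3 (No NRP + HOPE 2 h) over Group 2 (NRP + SCS 2 h) as diamonds without one. All 8 intervals include 0, and the diamonds run from 2.20 for DNAJB1 to -0.91 for HSF2.

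The comparison of Group 3 (without NRP) with Group 2 (with NRP) was used by the study to look at the omission of NRP. It chose the members, and nothing is read from the following counts. Over all genes 0.0509% passed the adjusted rule, 3.46% the unadjusted rule, and 14.7% had hearts without overlap (4.44% higher and 10.3% lower in Group 3). Of the members, DNAJB1 passed the adjusted rule, DNAJB1 and ZFAND2A the unadjusted rule, 3 were without overlap and higher (DNAJB1, ZFAND2A and HSPH1), and 1 was without overlap and lower (HSF1). The log2 fold changes for Group 3 over Group 2 were 2.20 for DNAJB1, 1.15 for ZFAND2A, 0.81 for HSPH1, 0.31 for BAG3, 0.31 for HSP90AA1, 0.01 for HSPA8, -0.45 for HSF1 and -0.91 for HSF2. The median over the members was 0.31 (0.20 with array weights) and that over all genes tested was -0.07, which became 0.065 without pig 31 and -0.18 without pig 34. Without pig 31 the value of DNAJB1 was 1.86 and that of ZFAND2A 0.76, and DNAJB1 then no longer passed the adjusted rule, nor did it without pig 24, 25 or 34. HSPH1 was 0.535 without pig 31, HSP90AA1 0.19 without pig 24, and BAG3 0.47 without pig 25 and 0.15 with array weights. HSPA8 ranged from -0.13 (without pig 34) to 0.11 (without pig 24).

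Group 1 against Group 3 sets side by side the groups stored by HOPE, and it shares the hearts without NRP with the comparison that chose the members. For Group 1 over Group 3 the log2 fold change was -2.16 for DNAJB1, -0.78 for ZFAND2A and -0.44 for HSPH1. Without pig 31 these were -1.82, -0.39 and -0.165, and HSPH1 was at 0.02 with array weights. The remaining 5 members lay between -0.10 (HSF1) and 0.22 (HSF2). With 1 heart left out, HSF1 ranged from -0.385 (without pig 30) to 0.08 (without pig 28). HSF2 then ranged from 0.01 (without pig 31) to 0.48 (without pig 27), and HSPA8 from -0.06 (without pig 28) to 0.36 (without pig 27). HSP90AA1 and BAG3 each differed by -0.01, with 95% intervals of -0.53 to 0.52 and -0.63 to 0.61. These values rested on single hearts, being -0.21 and -0.275 without pig 30 and 0.14 and 0.225 without pig 27.

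Across the 9 hearts DNAJB1 had a Pearson r of 0.84 with ZFAND2A and of 0.73 with HSPH1 on the log2(TPM + 1) scale. Because the hearts with and without NRP form separate clusters in DNAJB1, these values describe mainly that gap. Over the 6 hearts with NRP the r was 0.165 with ZFAND2A and -0.58 with HSPH1, and DNAJB1 hardly varied there. The hearts share the TPM scaling, and no test was made. HSP90AA1 and BAG3 formed a different pair, with an r of 0.92 that follows pig 30 at the top and pig 24 at the bottom rather than the groups. The r of DNAJB1 was 0.36 with HSP90AA1, 0.31 with BAG3, -0.13 with HSPA8, -0.295 with HSF1 and -0.56 with HSF2.

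**Figure D3:**
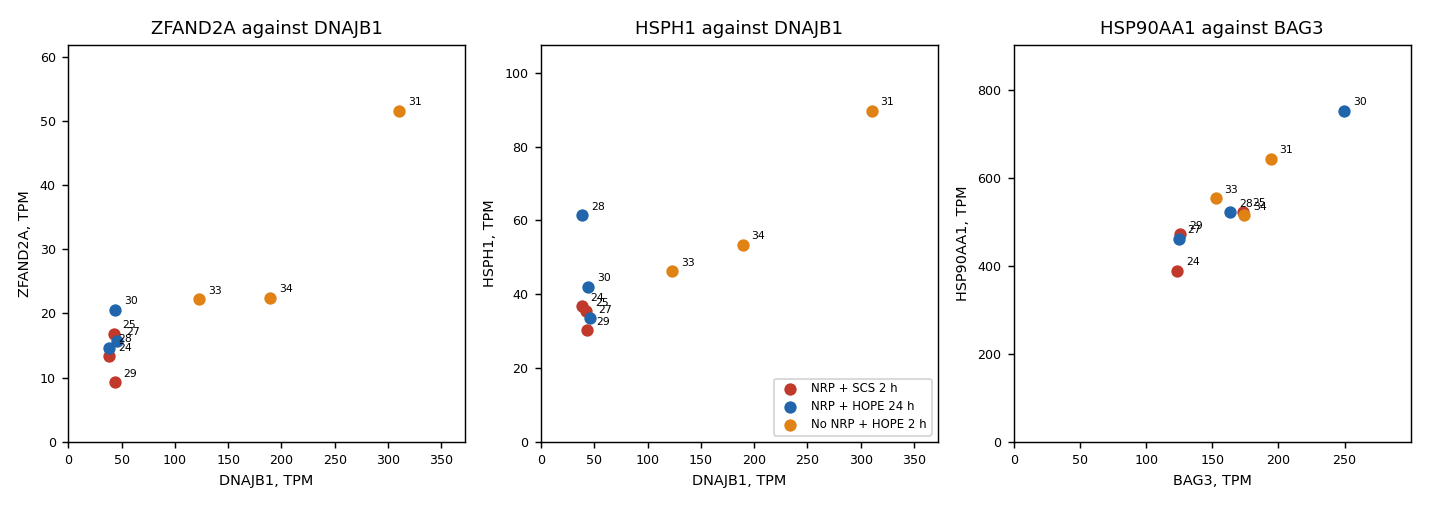
TPM of ZFAND2A and HSPH1 against DNAJB1, and of HSP90AA1 against BAG3, in 9 hearts labelled by pig number and coloured by group (linear axes from 0). The 3 hearts without NRP stand to the right in DNAJB1, with pig 31 highest in all 3 genes of the first 2 panels, whereas the third panel runs from pig 24 to pig 30 with the groups mixed.

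The 5 genes with a symbol whose pattern was most like that of DNAJB1 over the 9 hearts were MAK (r 0.92), RF00026 (0.91), TCEAL9 (0.905), IZUMO2 (0.90) and CDO1 (0.89). None of these 5 is a chaperone gene, and all were at low levels. MAK, RF00026, TCEAL9, IZUMO2 and CDO1 held places 4, 6, 7, 8 and 11 in the order of r. The places before and between them went to genes listed without a symbol, which were not named here. Of the 25149 genes listed, 12006 had no symbol, so the 5 do not show whether a chaperone gene was among the closest. MAK, RF00026 and IZUMO2 passed the filter only because of the hearts without NRP, so their place here is fixed by the filter and by the gap that chose DNAJB1. CDO1, which encodes the cysteine dioxygenase that starts cysteine breakdown, stood at 2.46 to 5.34 TPM in the 6 hearts with NRP and at 7.63 to 8.90 TPM in the 3 without. TCEAL9 stood at 1.82 to 3.55 TPM with NRP and at 8.16 to 10.01 TPM without. RF00026, a small RNA listed under its family name, was listed at 0 in the 6 hearts with NRP and at 1.38 to 6.18 TPM in the 3 without. MAK and IZUMO2 did not exceed 2.02 TPM in any heart. ZFAND2A held place 20 and HSPH1 place 106 among the 11781 other genes in this order. Without pigs 31 and 34, the 2 hearts farthest from the median of DNAJB1, the r with DNAJB1 was 0.57 for ZFAND2A and 0.18 for HSPH1, and 0.76, 0.99, 0.90, 0.77 and 0.86 for MAK, RF00026, TCEAL9, IZUMO2 and CDO1, where pig 33 alone stood for the hearts without NRP. Over the 6 hearts with NRP it was 0.185 for MAK, -0.19 for TCEAL9, 0.40 for IZUMO2 and 0.28 for CDO1, and could not be computed for RF00026, so that the likeness of these genes also describes the gap between hearts with and without NRP.

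Beyond the members, 84 further genes of the chaperone network were listed by role, of which 66 were in the table and 54 were tested. Their fold changes are plotted by list. Between Group 1 and Group 2, 0 of 54 passed either rule. Hearts did not overlap for 2 genes higher (3.70%) and 1 lower (1.85%) in Group 1, against 2.5% and 7.32% of all genes. Between Group 3 and Group 2, 0 of 54 passed the adjusted rule and 1 the unadjusted rule. Hearts did not overlap for 4 genes higher (7.41%) and 10 lower (18.5%) in Group 3, against 4.44% and 10.3% of all genes. The median of the 54 genes was -0.06 in the former comparison and -0.16 in the latter, where all genes had -0.12 and -0.07.

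**Figure D4:**
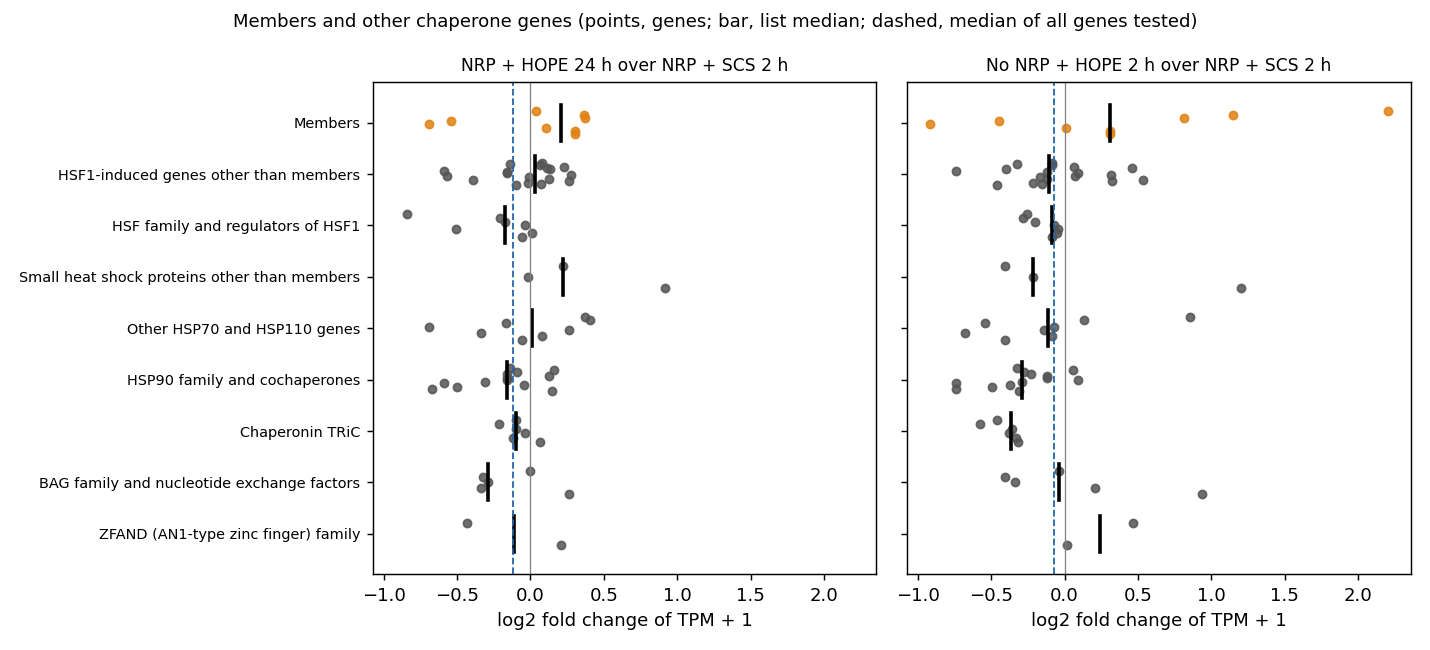
Log2 fold change of TPM + 1 over Group 2 for the 8 members and for the tested genes of 8 chaperone lists, in Group 1 (left) and Group 3 (right), with list medians as bars, 0 as a solid line and the median of all genes tested as a dashed line. DNAJB1 at 2.20 is the point farthest from 0, and the 6 chaperonin genes on the right all lie below 0, as they do under each scaling.

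Among the 18 tested HSF1-induced genes other than the members, 7 had positive and 11 negative log2 fold changes for Group 3 over Group 2 (9 negative under median-of-ratios or quantile scaling, 8 without pig 31), and 0 passed either rule. DNAJA1, another J-domain cochaperone of HSP70, stood at 126.8, 121.8 and 155.7 TPM in Group 2 and at 173.0, 175.4 and 207.6 TPM in Group 3. Its hearts did not overlap between these groups, and its log2 fold change was 0.46, against 2.20 for DNAJB1. CHORDC1, an HSP90 cochaperone, lay in the opposite order, at 11.98 to 14.8 TPM in Group 2 and 5.81 to 9.32 TPM in Group 3 (log2 fold change -0.74). DEDD2 differed by 0.53, with overlapping hearts. HSPA1A, HSPA1B and HSPA6, the classical inducible HSP70 genes, were not matched and were not analysed here, and HSPA1L was listed at 0 in all 9 hearts.

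For the HSF family and regulators of HSF1, 0 of 7 tested genes passed either rule in either comparison, and all 7 had negative log2 fold changes for Group 3 over Group 2, but only 4 under median-of-ratios or quantile scaling or without pig 31, and 5 with array weights or without pig 24. HSF4, a factor known for its role in the lens, was lower in each heart of Group 1 (4.68 to 10.9 TPM) than in Group 2 (12.3 to 21.9 TPM), with a log2 fold change of -0.84 (SE 0.35, limma adjusted p = 0.95). That value was -0.52 without pig 28, and HSF4 passed the unadjusted rule with array weights (-1.165) and without pig 30 (-1.05). HDAC6, a deacetylase that senses protein aggregates, differed by -0.51 in that comparison, and SIRT1 and EP300, which remove and add acetyl groups on HSF1, by -0.21 and -0.17.

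Of 3 tested small heat shock protein genes, HSPB8, the partner of BAG3 in autophagy, was abundant at 170.9 to 386.5 TPM over the 9 hearts and differed by -0.21 for Group 3 over Group 2. HSPB6 differed by -0.40. HSPB11 was the 1 gene of the lists past the unadjusted rule for Group 3 over Group 2, with 0.892 to 2.70 TPM in Group 2 and 3.38 to 11.6 TPM in Group 3 (log2 fold change 1.20). Each heart of Group 1 was higher than Group 2 as well, at 3.30 to 4.995 TPM (log2 fold change 0.91, limma adjusted p = 0.993), and there it passed the unadjusted rule with a pseudocount of 0.1, under median-of-ratios or quantile scaling, without pig 25 and after the mitochondrially encoded genes had been dropped. For Group 3 it did not pass with array weights, without pig 29 or without pig 34, nor at a mean TPM of at least 5, where it was not tested. In that comparison HSPA2 passed with array weights and without pig 29 or 31, GRPEL2 with a pseudocount of 0.1, under median-of-ratios or quantile scaling and without pig 29 or 33, and UNC45B without pig 34. Despite its symbol, HSPB11 is known as a component of intraflagellar transport (IFT25), and its level was low.

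For the HSP70, HSP90 and chaperonin genes outside the members, most log2 fold changes for Group 3 over Group 2 were negative. The median of all genes tested was negative there too (-0.07), and the share of all genes below 0 was not counted. For Group 1 over Group 2, 4 of 8, 10 of 13 and 5 of 6 were negative, but 3, 7 and 1 under median-of-ratios scaling. In either comparison 0 genes of these lists passed either rule. Of 8 tested HSP70 and HSP110 genes, 6 had negative log2 fold changes for Group 3 over Group 2 (4 under median-of-ratios or quantile scaling or without pig 31), among them HSPA9, the mitochondrial HSP70, at 150.8 to 177.1 TPM in Group 2 and 102.8 to 126.1 TPM in Group 3 (-0.54). HSPA2 had the positive value farthest from 0, at 0.85. Of 13 tested genes of the HSP90 family and its cochaperones, 11 were negative, under these scalings too (9 without pig 31), led by UNC45B, the myosin chaperone of striated muscle (-0.74), and CHORDC1. All 6 tested subunits of the chaperonin TRiC, which folds actin and tubulin, were negative under each scaling, and in 4 of them (CCT2, TCP1, CCT4 and CCT7) each heart without NRP lay below each heart of Group 2, as for 10.3% of all genes. CCT7 was named after its values were seen. CCT2 stood at 108.1, 91.3 and 111.1 TPM in Group 2 and at 61.4, 82.2 and 65.0 TPM in Group 3 (-0.57). The median of the TRiC list was -0.37.

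Among 5 tested genes of the BAG family and nucleotide exchange factors, GRPEL2, which serves the mitochondrial HSP70, had 5.81 to 9.88 TPM in Group 2 and 11.7 to 17.5 TPM in Group 3, a log2 fold change of 0.93. BAG6 differed by -0.41. Of the ZFAND relatives of ZFAND2A, ZFAND2B differed by 0.47 and ZFAND6 by 0.02, both with overlapping hearts, against 1.15 for ZFAND2A. CCT5, ZFAND1 and ZFAND5 were listed at 0 in all 9 hearts.

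The summed levels of 3 of the 9 marker lists did not overlap between Group 2 and Group 3, and no test was made on them. Of all single genes tested, 14.7% had hearts without overlap between these groups, a share that sums need not follow. The 3 erythroid markers listed, of 5 written, summed to 72.3 to 136.3 TPM in Group 2, 74.1 to 430.4 TPM in Group 1 and 225.8 to 378.5 TPM in Group 3. HBB, the beta-globin gene, stood at 70.8, 131.9 and 78.4 TPM in pigs 24, 25 and 29, at 73.5, 338.8 and 419.8 TPM in pigs 27, 28 and 30, and at 220.2, 367.6 and 220.1 TPM in pigs 31, 33 and 34. The hearts without NRP lay above those of Group 2 and within the range of Group 1. The 5 fibroblast markers listed, of 6 written, summed to 669.4 to 981.8 TPM in Group 2, 763.2 to 1116 TPM in Group 1 and 1020 to 1150 TPM in Group 3. The 5 neutrophil markers listed, of 6 written, summed to 4.85 to 14.5, 1.52 to 5.47 and 0.799 to 4.26 TPM in the same order, with CSF3R and MPO listed at 0 in every heart. The sums overlapped between Group 2 and Group 3 for the endothelial (513.3 to 591.7 and 286.7 to 640.3 TPM), mural (260.6 to 383.3 and 360.2 to 428.9 TPM), macrophage (75.1 to 185.7 and 106.1 to 216.7 TPM) and lymphocyte markers (5.34 to 11.04 and 8.02 to 19.1 TPM), and for the cardiomyocyte markers and the 1 adipocyte marker listed. The part of red cells, fibroblasts and neutrophils in the heat shock values was not tested.

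The mitochondrially encoded share, at its lowest in pig 30, bears on each TPM value because the total is fixed. With the 13 genes left out and the rest rescaled to 1000000, DNAJB1 was 83.3 ± 9.05 TPM (SD, n = 3) in Group 2, 85.8 ± 15.5 TPM (SD, n = 3) in Group 1 and 424.2 ± 234.5 TPM (SD, n = 3) in Group 3, and its 3 hearts without NRP remained above the other 6. HSP90AA1 in pig 30 then stood at 1220 TPM against 1430 TPM in pig 31, and BAG3 at 404.4 TPM against 430.9 TPM, so that pig 31 took the highest place for both. HSF1 then was 51.4, 46.7 and 66.6 TPM in Group 1, all below the 87.6, 83.0 and 71.9 TPM of Group 2, as were 12.8% of all genes on that scale.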

How the data were processed

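RNA sequencing of 9 hearts in 3 groups of 3 was analysed. Each heart was assigned by the pig number in the labels. A further 9 columns of the table were tied to no sample and were not used. The authors deposited TPM with 1 column per heart. The submitters' processing notes name bcl2fastq 2.17, Trimmomatic 0.36, STAR 2.5.2b, featureCounts of Subread 1.5.2 and DESeq2. The genome build was not given in the sources used here, so no positions are printed, and promoter sequences were not analysed here. ERCC RNA was added before library preparation, and no spike-in scaling was made. Total RNA was enriched for polyadenylated RNA, which limits values of small RNAs.

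TPM are not counts. Log2(TPM + 1) was therefore fitted by limma 3.58.1 in R 4.3.3 as 3 group means in a single fit of the 9 hearts, with eBayes and a trend. Tests were two-sided, with Benjamini-Hochberg adjustment over the 11782 genes that reached 1 TPM in 3 hearts or more. The script was tested on simulated data. Likeness is Pearson's r of log2(TPM + 1), computed with numpy 2.4.6 and pandas 2.3.3 in Python 3.11.15. Figures were drawn with matplotlib 3.10.9. Genes were matched by symbol, or by identifier through a table of gene names.

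The members and lists were chosen with earlier results of these data known. Named genes were all members listed, up to 4 tested genes of each list with the greatest absolute log2 fold change, the inducible HSP70 genes, and the 5 genes with a symbol most like DNAJB1. A gene that this rule names is not reported here. CCT7 and the genes listed at 0 were named after their values were seen. As alternatives, the TPM were rescaled by median-of-ratios factors, by quantile normalization, or after the mitochondrially encoded genes had been dropped. The filter was removed or set to a mean TPM of 5, the pseudocount set to 0.1, the trend dropped, array weights added, the fit restricted to the 6 hearts in a comparison, and each heart left out in turn.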

Additional observations from a re-analysis of the deposited data

How the results depend on the processing

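The counts in the comparison that chose the members depended on the setting. They are given as a description, and nothing is read from them because DNAJB1 was chosen there. DNAJB1 passed the adjusted limma rule in Group 3 against Group 2 (1 member), but 0 members passed with quantile normalization, with only the 6 hearts compared, with no filter or with median-of-ratios scaling. Leaving out 1 heart gave 0 to 1, with 0 without pig 24, 25, 31 or 34. The log2 fold change of DNAJB1, which these values chose, lay between 1.86 and 2.52 when 1 heart was left out and between 1.83 and 2.30 under the other alternatives. At the unadjusted rule 2 members passed, 1 with array weights, and 1 to 3 when 1 heart was left out, with 1 without pig 29 or 31 and 3 without pig 25, 33 or 34, where HSF2 (lower, without pig 25 or 34) or HSPH1 (without pig 33) joined. For the other chaperone genes in that comparison the count at the unadjusted rule was 1, 2 with a pseudocount of 0.1, median-of-ratios scaling or quantile normalization, and 0 at a mean TPM of at least 5. Leaving out 1 heart gave 1 to 2, with 2 without pig 29, 31 or 33. For Group 1 against Group 2 that count was 0, and 1 with a pseudocount of 0.1, median-of-ratios scaling, quantile normalization, the mitochondrially encoded genes left out or array weights. Leaving out 1 heart gave 0 to 2, with 1 without pig 25 and 2 without pig 30. The cause was not tested. Single log2 fold changes also moved under these alternatives. DNAJB1 in Group 1 against Group 2 went from 0.04 to 0.19 with median-of-ratios scaling, a shift smaller than its SE of 0.32. HSPH1 in Group 1 against Group 3 changed sign with array weights, from -0.445 to 0.016, a shift larger than its SE of 0.319. No paired analysis was possible because the groups share no pig numbers. With 3 hearts per group and unknown depth, small changes of the members were not detectable.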
